A study of Mus musculus with 238 samples.

Results

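The renin-angiotensin system was followed through 5 of its genes, taken by symbol as rows of the count table: Agt, Ace, Agtr1a, Enpep and Lnpep. All 5 had a row among the 21076 genes, and each was read in every brain region and in liver. The genes were chosen with earlier results of these data known, and Ace in particular was selected on its level in the plasma cohort and its place beside choroid plexus transcripts. The plasma difference of Ace and its relation to choroid plexus genes are therefore given as a description, with no test.

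The libraries came from C57BL/6JN mice of 19 months, in separate diet and plasma cohorts. The diet cohort held 5 dietary-restricted females (aDR, written DR on the liver libraries) and 4 females fed ad libitum (AL), with 131 brain and 9 liver libraries. The plasma cohort held 3 males given young mouse plasma (YMP) by injection behind the eye and 4 males given PBS in the same way, with 98 brain libraries. Sex differed with the cohort, so the cohorts are set side by side and not compared. Each brain gave 15 dissected regions, and most comparisons set 5 mice against 4 in the diet cohort and 3 against 4 in the plasma cohort. Exceptions in the diet cohort were hypothalamus with 4 against 4, corpus callosum with 4 against 3 and entorhinal cortex with 5 against 3 mice. In the plasma cohort corpus callosum had 2 against 3 mice, and 3 against 3 were compared in cerebellum, hypothalamus, posterior hippocampus, pons and visual cortex. Levels are in CPM, read counts divided by the TMM-scaled library total over all 238 libraries and set to a common total of 1e6, whose totals ran from 0.606 to 32.4 M counts (in units of 1e6) with a median of 8.44 M.

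Angiotensinogen, the product of Agt, is the only precursor of the angiotensin peptides. Renin cuts it to angiotensin I, and angiotensin-converting enzyme, the product of Ace, makes angiotensin II from that. Angiotensin II acts on the type 1 receptor, whose main mouse form is encoded by Agtr1a. Aminopeptidase A (Enpep) trims angiotensin II to angiotensin III, and Lnpep encodes an insulin-regulated aminopeptidase that binds angiotensin IV. Liver is the main source of circulating angiotensinogen, and astrocytes are known to make it in the brain. In the brain ACE protein is known from choroid plexus epithelium, endothelium and striatal neurons.

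In the GRCm38 annotation Agt lies on chromosome 8 from 124556534 to 124569706 (minus strand), Ace on chromosome 11 from 105967945 to 105989964 (plus strand) and Agtr1a on chromosome 13 from 30336441 to 30382867 (plus strand). Enpep lies on chromosome 3 from 129269175 to 129332720 and Lnpep on chromosome 17 from 17521410 to 17625050, both on the minus strand. The libraries carry no strand information, so reads of an annotated antisense transcript inside Ace (Gm11651) cannot be told apart from reads of Ace. Agtr1a, Enpep and Lnpep each also overlap 1 other annotated transcript, and Agt overlaps none. Agt and Ace are the members whose brain levels are described most closely below, and the 250 bases before their start sites are shown to let a reader place them. They come from RefSeq (GRCm38.p6), at chr8:124569707-124569956 (minus strand) for Agt and at chr11:105967698-105967947 (plus strand) for the upstream start of Ace, each read 5′ to 3′. Capitals mark matches on either strand to TATAAA (the TATA box), to GGGCGG (the GC box) or to CCAAT (the CCAAT box).
Agt: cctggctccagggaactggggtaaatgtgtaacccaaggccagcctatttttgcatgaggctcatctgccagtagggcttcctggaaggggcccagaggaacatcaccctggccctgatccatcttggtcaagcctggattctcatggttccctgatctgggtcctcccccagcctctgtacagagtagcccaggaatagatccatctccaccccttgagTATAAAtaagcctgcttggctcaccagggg
Ace: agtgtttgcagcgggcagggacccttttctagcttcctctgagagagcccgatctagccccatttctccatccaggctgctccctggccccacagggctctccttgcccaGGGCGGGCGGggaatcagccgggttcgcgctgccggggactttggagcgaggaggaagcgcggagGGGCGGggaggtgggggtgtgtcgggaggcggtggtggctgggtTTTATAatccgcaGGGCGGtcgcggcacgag
Agt held 1 match to TATAAA, which began 30 bases before the start, and none to the other motifs in this window. Ace held 1 match to TATAAA on the opposite strand, 31 bases before the start, and 4 matches to GGGCGG, at 140, 136, 75 and 18 bases before the start, of which the first pair overlap. Of 32851 windows of this length in the RefSeq table, 12.4% held the TATA box letters, 32.7% those of the GC box and 33.8% those of the CCAAT box on either strand. RefSeq lists a second start of Ace 7.24 kb downstream, and counts per gene do not tell the starts apart. These matches are a description of letters and no evidence of binding.

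Known marker genes of a region or of liver stood above all other brain regions in 18 of 24 pairs of tissue and marker. The 6 that did not included Prox1 and Wfs1 for hippocampus, Tbr1 for cortex, Mbp for white matter and Dcx for SVZ. In corpus callosum the 6 markers of medium spiny neurons, the main striatal cell type, summed to between 2165 and 5779 CPM, against 4304 to 12098 CPM in caudate putamen. Choroid plexus epithelium was followed by 14 markers, with Ttr (transthyretin), Kcne2 and Kl among them. Their summed level was at least 10% of the choroid plexus mean of the same cohort in 25 of 213 libraries from other brain regions. Those 25 came from SVZ (9), corpus callosum (8), caudate putamen (4), anterior hippocampus (2), cerebellum (1) and thalamus (1). They were 6 of 54 AL, 9 of 68 aDR, 10 of 50 PBS and 0 of 41 YMP libraries. Among the choroid plexus libraries themselves, YMP mouse 73 reached 1.88% of its cohort mean, and AL mice 66 and 63 and aDR mouse 67 reached 15.2%, 23.3% and 21.0%. These libraries are named again wherever a value rests on them.

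Agt, the precursor, was abundant in liver and varied more between brain regions than any other member with counts in all libraries. In liver it stood at 1348, 1327, 1241 and 1131 CPM in AL mice and at 1268, 1381, 1421, 1120 and 1467 CPM in DR mice. The diet groups overlapped in liver, with a log2 difference (DR minus AL) of 0.10 ± 0.14 (SE; edgeR quasi-likelihood test, adjusted p = 0.93). In brain the AL mean was highest in hypothalamus at 373 ± 30.3 CPM (SD, n = 4), followed by pons at 237 ± 87.3, thalamus at 204 ± 31.05, medulla at 165 ± 50.6 and cerebellum at 145 ± 19.9. It was lowest in motor cortex at 5.21 ± 0.73 CPM, 71.6-fold below hypothalamus, with corpus callosum at 7.13 ± 2.05 (n = 3) and visual cortex at 8.68 ± 2.41 CPM next. PBS mice gave 326 ± 80.2 CPM (n = 3) in hypothalamus and 7.18 ± 1.75 CPM (n = 3) in corpus callosum, the lowest of that cohort. Neighbours in the order of AL regions overlapped in all 14 cases, and in 13 of 14 cases among PBS regions, where pons and medulla did not. So the top and bottom of the order were apart while adjacent regions, that PBS pair aside, were not.

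**Figure D1:**
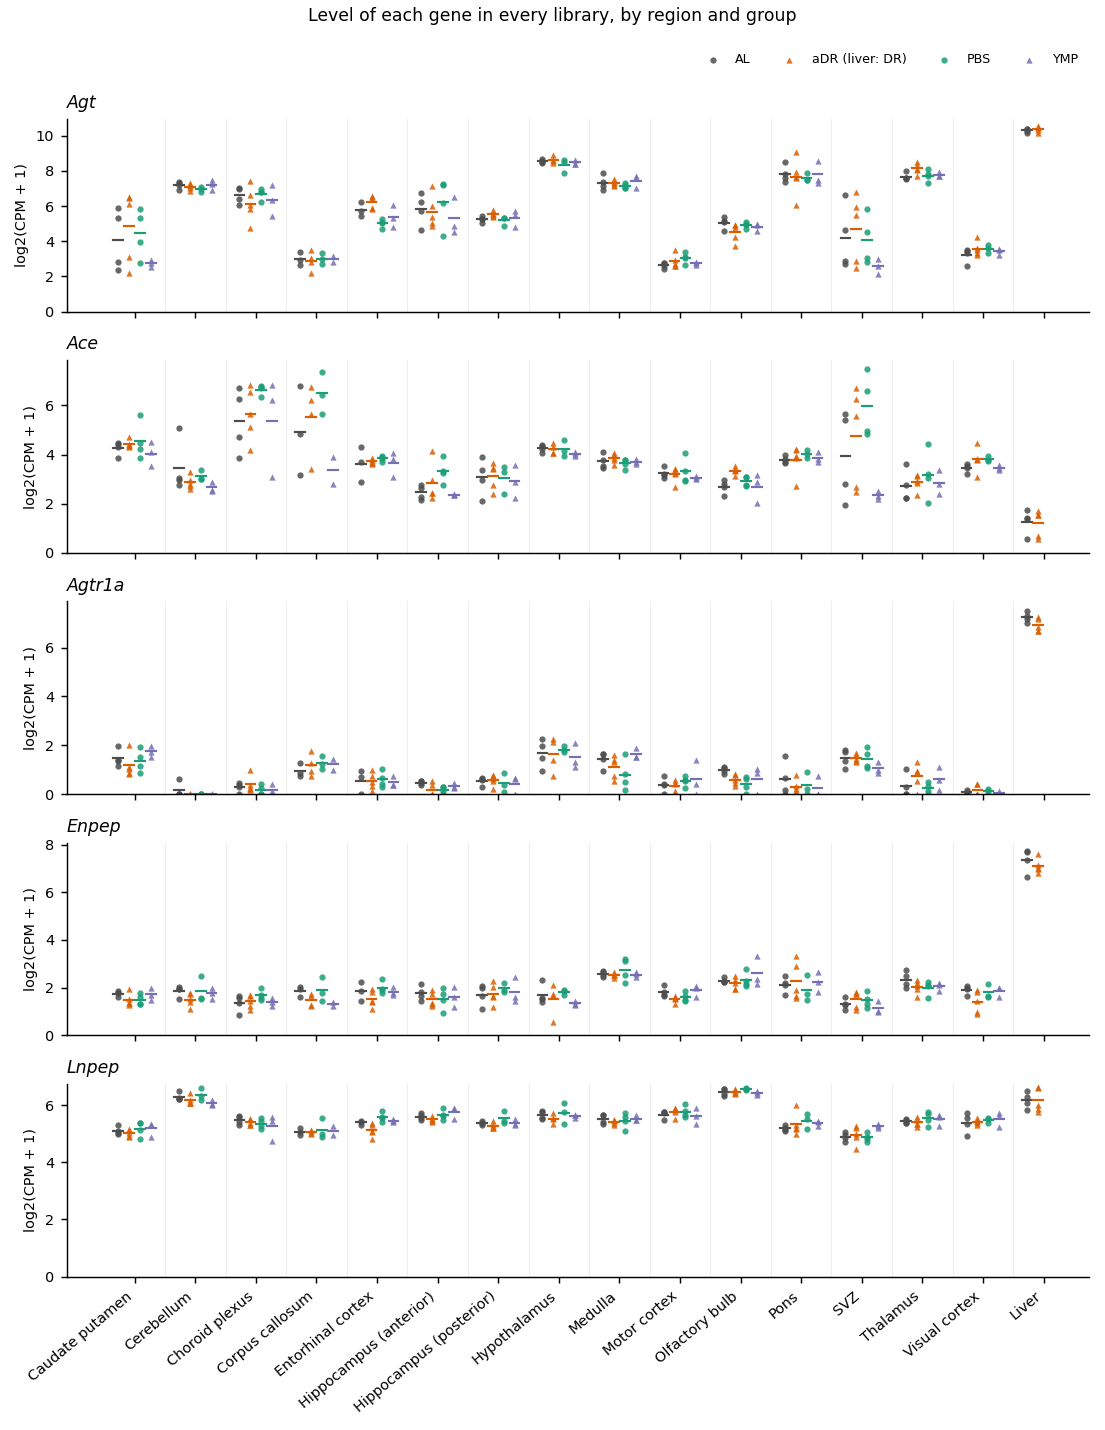
Level of the 5 genes in each of the 238 libraries, as log2(CPM + 1), by brain region and in liver; grey circles are AL, orange triangles aDR (DR in liver), green circles PBS and purple triangles YMP, and short lines are group means. Agt, Agtr1a and Enpep stood highest in liver, and Ace in choroid plexus, SVZ and corpus callosum. Lnpep was present throughout, with olfactory bulb and cerebellum on top of the brain regions.

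The level of Agt in caudate putamen and SVZ, 2 regions beside the lateral ventricle, differed widely between mice of the same group. Anterior hippocampus spread widely too, from 24.4 to 108 CPM in AL and from 28.6 to 140 CPM in aDR mice, with aDR mouse 67 highest. In SVZ the AL mice 63, 66, 68 and 69 gave 6.31, 98.8, 5.43 and 23.5 CPM, and the aDR mice 61, 62, 64, 65 and 67 gave 109, 60.5, 4.51, 43.7 and 6.34 CPM. In caudate putamen the AL mice, in the same order, gave 5.97, 57.6, 4.17 and 39.6 CPM, and the aDR mice gave 89.7, 85.2, 7.61, 68.2 and 3.64 CPM. The same 5 diet mice (61, 62, 65, 66 and 69) were above 20 CPM in both regions, and the other 4 mice were below 8 CPM in both. In those 5 mice the choroid plexus markers of the SVZ library were at 70.8% to 217% of the choroid plexus mean, and in the other 4 they were at 7.30% or less. In caudate putamen AL mouse 66 and aDR mouse 65 held the markers at 0.41% and 0.52%, and PBS mouse 80 at 0.29%, beside Agt levels of 57.6, 68.2 and 38.8 CPM. The PBS mice 72, 76, 80 and 84 gave 6.09, 55.3, 22.1 and 7.22 CPM in SVZ and 5.68, 55.1, 38.8 and 14.3 CPM in caudate putamen. PBS mouse 72 had the highest marker level of any SVZ library, 220% of the choroid plexus mean, at 6.09 CPM of Agt. The level of Agt in SVZ and caudate putamen thus did not follow the choroid plexus markers in every mouse. YMP mice 73, 77 and 81 gave 3.36, 5.09 and 7.02 CPM in SVZ and 4.81, 6.77 and 5.80 CPM in caudate putamen.

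For plasma treatment the log2 difference of Agt (YMP minus PBS) was -2.15 ± 0.79 (SE) in SVZ and -2.32 ± 0.72 in caudate putamen, where the groups overlapped in both regions. Neither passed edgeR's quasi-likelihood test (adjusted p = 0.30 and 0.47), while DESeq2 called the SVZ difference (-2.16, adjusted p = 0.049). In the same SVZ libraries the choroid plexus markers summed to 35.0 to 74.6 CPM in YMP and 2912 to 20245 CPM in PBS mice. In choroid plexus itself the mean of Agt was 101 CPM in AL and 106 CPM in PBS mice. Among the AL mice, 63 and 66, whose choroid plexus libraries held little of the marker sum, gave 66.2 and 83.6 CPM. The AL mice 68 and 69 gave 128 and 126 CPM. In corpus callosum 8 libraries held the markers at 27.7% to 257% of the choroid plexus mean, with Agt at 5.28 to 10.2 CPM. The other 4 corpus callosum libraries gave 3.55 to 7.87 CPM of Agt. The part of the markers in the Agt difference in SVZ was not tested. Without PBS mouse 76 the difference in SVZ fell in size to -1.15. The diet difference of Agt (aDR minus AL) was 0.95 ± 0.96 (SE) in caudate putamen, with 0.57 (without AL mouse 68) to 1.63 (without AL mouse 66) on leaving out 1 mouse. It was 0.52 ± 1.05 in SVZ, and -0.22 there without aDR mouse 61 (edgeR adjusted p = 0.73 in caudate putamen and 0.999 in SVZ). Higher Agt in aDR mice of thalamus was seen in single libraries, with 274, 261, 321, 211 and 368 CPM against 250, 183, 192 and 191 CPM in AL mice. That log2 difference was 0.49 ± 0.15 (SE; edgeR adjusted p = 0.99), and the groups overlapped. In posterior hippocampus it was 0.29 ± 0.10, with 40.8 to 52.8 CPM in aDR and 31.6 to 42.2 CPM in AL mice (edgeR adjusted p = 0.9996). Over all brain regions the log2 difference of Agt was 0.13 ± 0.20 (SE) for diet (limma adjusted p = 0.80) and -0.27 ± 0.11 for plasma (adjusted p = 0.58; -0.05 in voom with mouse as the replicate block and -0.16 without choroid plexus, SVZ and corpus callosum), and the groups of mice overlapped in both cohorts. Of 7 astrocyte markers, 4 were lower and 3 higher in aDR mice with 1 called, Gjb6 (0.28), beside 1.75% of all genes. In YMP mice 5 were lower and 2 higher with 0 called, beside 0% of all genes.

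**Figure D2:**
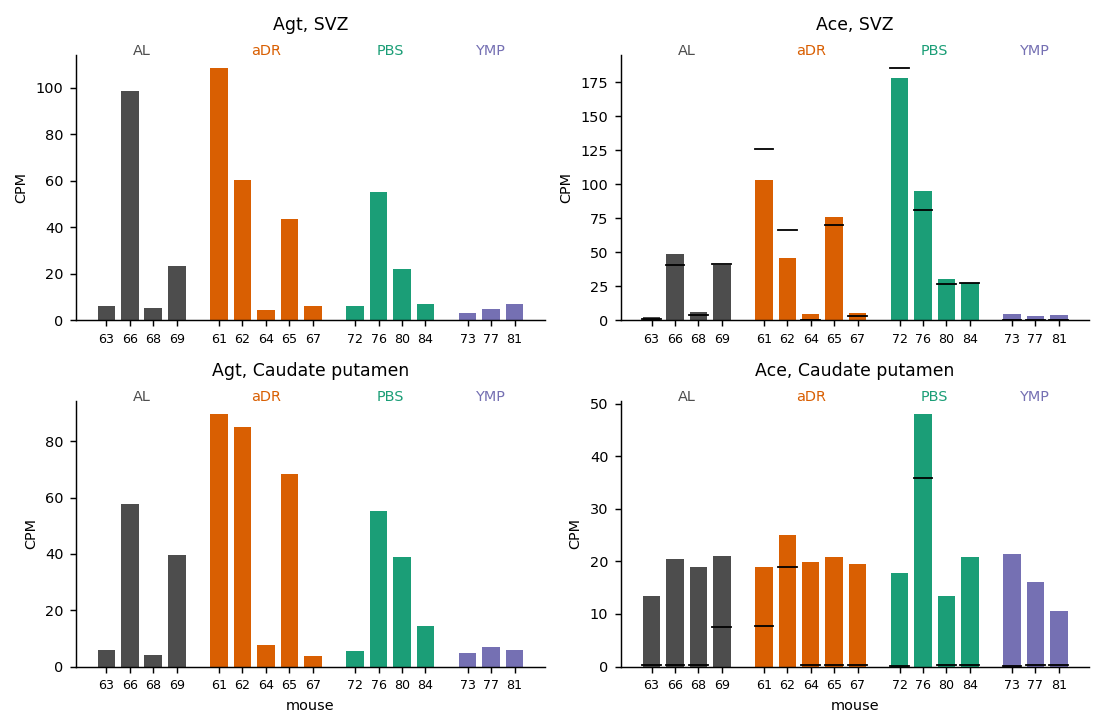
Agt (left) and Ace (right) in SVZ (top) and caudate putamen (bottom), in CPM, 1 bar per mouse; black lines on the Ace bars give the Ace level that the choroid plexus marker sum of that library corresponds to. Mice 61, 62, 65, 66 and 69 are high for Agt in both regions, and all 3 YMP mice are low in SVZ for both genes.

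Ace, the converting enzyme, was a low-level transcript in most of the brain and reached its highest levels in choroid plexus libraries and in libraries that carried choroid plexus markers. In choroid plexus the AL mice 63, 66, 68 and 69 gave 25.1, 13.3, 74.6 and 104 CPM and the aDR mice 61, 62, 64, 65 and 67 gave 91.8, 34.2, 112, 48.7 and 17.4 CPM. The PBS mice 72, 76, 80 and 84 gave 79.2, 107, 103 and 109 CPM and the YMP mice 73, 77 and 81 gave 7.43, 111 and 72.5 CPM. The 4 lowest of these 16 libraries were the 4 with little of the marker sum that are named above. Per 1000 CPM of markers the choroid plexus libraries held 9.51 to 22.9 CPM of Ace in the diet cohort and 6.69 to 43.0 in the plasma cohort, with the top value in YMP mouse 73. Liver held almost none, with 1 to 13 counts per library and a highest level of 2.33 CPM.

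The choroid plexus share of Ace was computed for each other library as its marker sum times the ratio of mean Ace to mean marker sum in choroid plexus (12.3 CPM of Ace per 1000 CPM of markers in the diet cohort and 9.16 in the plasma cohort). In the 25 libraries at 10% or more, measured Ace was between 0.68 and 2.77 times this share, with a median of 1.002. In SVZ of PBS mice 72, 76, 80 and 84 Ace was 178, 95.3, 30.1 and 27.3 CPM, and the share was 185, 81.3, 26.7 and 27.7 CPM. In corpus callosum of PBS mice 76, 80 and 84 it was 164, 85.4 and 49.7 CPM beside shares of 178, 126 and 49.6 CPM. In cerebellum AL mouse 68 gave 33.3 CPM beside a share of 27.5 CPM, and the other 3 AL mice gave 5.76 to 7.20 CPM. In thalamus PBS mouse 72 gave 20.4 CPM beside a share of 15.4 CPM. The ratio was largest in caudate putamen, from 1.32 to 2.77 in 4 libraries. The 10% limit was set after the values had been seen. The library just above it was caudate putamen of AL mouse 69 (13.1%, 21.0 CPM of Ace) and the one just below was SVZ of AL mouse 68 (7.30%, 5.96 CPM). In SVZ and corpus callosum, levels of Ace in these libraries were thus near what the marker sum corresponds to. The ratio depends on the reference, and its median was 0.40 with the choroid plexus library richest in Ace per marker in each cohort (AL mouse 63 and YMP mouse 73) and 1.37 with the poorest (aDR mouse 62 and YMP mouse 77).

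**Figure D3:**
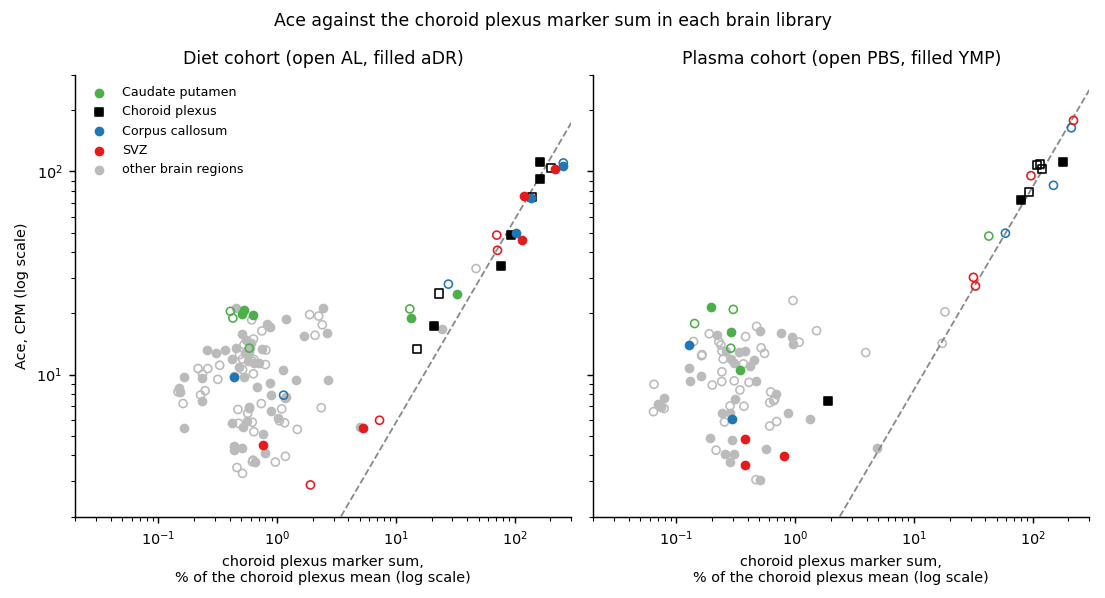
Ace (CPM, log scale) against the summed level of 14 choroid plexus markers as a percent of the mean choroid plexus library of the cohort (log scale), for each of the 229 brain libraries; open symbols are controls, filled symbols treated mice, and the dashed line is the Ace level in proportion to the markers. Outside choroid plexus, libraries at 10% or more lie at 0.68 to 2.77 times the line, and the 4 from caudate putamen all lie above it. The other libraries spread between 2.86 and 23.1 CPM whatever their marker level.

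Ace was also present where choroid plexus markers were low. In the 188 brain libraries below 10% it ran from 2.86 to 23.1 CPM with a median of 9.56 CPM, and the share computed from the markers was at most 4.23 CPM. The median of such libraries was highest in caudate putamen (19.3 CPM in 12 libraries), hypothalamus (16.3 in 14), pons (13.5 in 15) and entorhinal cortex (12.7 in 15). It was lowest in anterior hippocampus (4.40 CPM in 14 libraries) and SVZ (4.51 in 7). All 12 such libraries of caudate putamen lay above 10 CPM, and all 7 of SVZ lay below 6 CPM. SVZ was thus among the highest regions for Ace with its marker-rich libraries and among the lowest without them.

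In the plasma cohort Ace was lower in YMP than in PBS mice in 13 of 15 regions, and the differences were largest in corpus callosum and SVZ. In SVZ the YMP mice 73, 77 and 81 gave 4.80, 3.61 and 3.97 CPM against 27.3 to 178 CPM in PBS mice, a log2 difference of -4.45. In corpus callosum YMP mice 77 and 81 gave 14.01 and 6.06 CPM against 49.7 to 164 CPM in PBS mice, a log2 difference of -3.48. The marker sum was 35.0 to 74.6 CPM in YMP and 2912 to 20245 CPM in PBS mice in SVZ, and 11.7 to 27.03 against 5414 to 19416 CPM in corpus callosum. Of the 14 markers, 0 in SVZ and 1 in corpus callosum had no count in any YMP library. Treatment and marker level did not overlap in these regions, so a change of Ace per cell and a different amount of choroid plexus tissue cannot be told apart there. As in any bulk sample, fewer cells of a type and less RNA per cell cannot be told apart either.

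Other regions gave smaller differences in Ace. In anterior hippocampus the YMP mice gave 4.04, 4.33 and 4.08 CPM and the PBS mice 8.40, 14.2, 5.84 and 9.16 CPM. The library of PBS mouse 76 held the markers at 17.3% of the choroid plexus mean, with 14.2 CPM of Ace beside a share of 14.6 CPM. The log2 difference was -1.21, and it was -1.15 with the marker covariate and -0.998 without that mouse. In caudate putamen it was -0.68, and -0.18 without PBS mouse 76, whose library held the markers at 42.7%. In choroid plexus itself it was -0.65, and -0.11 without YMP mouse 73. Over the brain regions, the mouse values of Ace (log2 CPM adjusted for region) were 3.32, 3.39 and 3.16 in YMP mice 73, 77 and 81 and 4.31, 4.27, 3.82 and 4.04 in PBS mice 72, 76, 80 and 84. These groups did not overlap, as was true of 10.1% of the 15768 genes in the fit, and the difference was -0.82. Without choroid plexus, SVZ and corpus callosum it was -0.35. All 14 choroid plexus markers were lower in YMP mice by the same measure, from -0.74 (Clic6) to -2.29 (Ttr). Limma called 0 of the 14, beside 0 of all 15768 genes, so this count says nothing particular to the markers. The 6 markers of meningeal fibroblasts were lower in YMP mice too, by a median of -0.36. So were the 5 of blood (median -0.32), the 5 of ependyma (-0.06) and the 3 hepatocyte markers in the fit (-0.06), Ttr among them. The lists of endothelium, pericytes, astrocytes and medium spiny neurons held markers of both directions. The part of these lists in the Ace difference was not tested.

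In the diet cohort the lowest adjusted p of Ace was that of olfactory bulb. The aDR mice 61, 62, 64, 65 and 67 gave 9.36, 9.11, 9.41, 10.6 and 7.63 CPM and the AL mice 63, 66, 68 and 69 gave 6.78, 3.96, 5.92 and 5.37 CPM. The groups did not overlap, as for 5.30% of the genes in that comparison, and the log2 difference was 0.72 ± 0.16 (SE; edgeR adjusted p = 0.12, and 0.093 to 0.36 over the alternatives). Choroid plexus markers summed to 40.7 to 127 CPM in aDR and 49.3 to 69.7 CPM in AL mice there, and endothelial markers to 282 to 382 and 337 to 377 CPM. In cerebellum the difference was -1.01 ± 0.48 (edgeR adjusted p = 0.38), and -0.04 without AL mouse 68. In corpus callosum, AL mice 63, 66 and 69 gave 7.91, 110.1 and 27.9 CPM and aDR mice 61, 62, 65 and 67 gave 106, 73.6, 49.6 and 9.77 CPM, with low values in the 2 libraries below the marker limit. In SVZ the difference was 1.02, and 0.45 (without aDR mouse 61) to 1.54 (without AL mouse 66) on leaving out 1 mouse. The adjusted p was 0.75 to 0.99997 over the edgeR and DESeq2 alternatives. In SVZ 5 of 9 libraries lay above 40 CPM and 4 below 6 CPM. Those 5 held the choroid plexus markers at 70.8% to 217% of the choroid plexus mean, and they were the mice with high Agt. The part of the markers in this difference was not tested. Over the brain regions the diet difference was 0.22 ± 0.15 (limma adjusted p = 0.51).

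Agtr1a, the receptor gene, was near the detection limit in brain and abundant in liver. It had no count in 46 of 229 brain libraries, and its highest brain level was 3.84 CPM. In hypothalamus, its top region in both cohorts, the AL mice gave 1.79, 0.96, 3.80 and 2.88 CPM from 11 to 24 counts, and the PBS mice gave 2.49, 2.26 and 2.93 CPM. SVZ followed at 1.84 ± 0.69 CPM (SD, n = 4 AL mice), then caudate putamen at 1.83 ± 0.72 and medulla at 1.73 ± 0.59 CPM. In cerebellum it had 4 counts (0.53 CPM) in AL mouse 68, the library with choroid plexus markers, and none in the other 14 libraries. Choroid plexus itself held 0.22 ± 0.15 CPM of Agtr1a (SD, n = 4 AL mice, of which mice 63 and 66 held little of the marker sum). In liver the AL mice 63, 66, 68 and 69 gave 182, 155, 128 and 143 CPM and the DR mice 61, 62, 64, 65 and 67 gave 150, 101, 103, 113 and 142 CPM. These groups overlapped, and the log2 difference was -0.30 ± 0.17 (SE; edgeR adjusted p = 0.66).

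Few brain comparisons had the depth for a test of Agtr1a, which passed the filter on low counts in 5 of 15 diet and 4 of 15 plasma regions. In medulla the YMP mice gave 1.85, 1.86 and 2.69 CPM and the PBS mice 0.43, 2.10, 0.76 and 0.11 CPM, with 1 to 14 counts per PBS library. The log2 difference was 1.83 ± 0.55 (SE; edgeR adjusted p = 0.45), and 3 of 4 PBS mice lay below all YMP mice. Over the brain regions the log2 difference was -0.15 ± 0.19 for diet (limma adjusted p = 0.76) and 0.13 ± 0.11 for plasma (adjusted p = 0.78). Brain libraries held at most 63 counts of Agtr1a.

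Enpep, aminopeptidase A, was highest in liver and low in all brain regions. In liver it was 168 ± 51.5 CPM (SD, n = 4) in AL and 140 ± 31.02 CPM (n = 5) in DR mice, a log2 difference of -0.24 ± 0.22 (SE; edgeR adjusted p = 0.86). In brain the AL means ran from 4.97 ± 0.47 CPM in medulla to 1.51 ± 0.40 in SVZ, a 3.29-fold range, and all neighbours in that order overlapped. The PBS order also ran from medulla (6.05 ± 2.24 CPM) to SVZ (1.83 ± 0.64 CPM). Enpep was lower in aDR than in AL mice in 11 of 15 brain regions. In visual cortex the aDR mice gave 0.99, 2.54, 2.72, 0.85 and 1.74 CPM and the AL mice 3.21, 2.91, 2.17 and 2.83 CPM, a log2 difference of -0.92 ± 0.30 (edgeR adjusted p = 0.31). In motor cortex it was -0.46 ± 0.21 (edgeR adjusted p = 0.44), with 1.52 to 2.12 CPM in aDR and 2.14 to 3.29 CPM in AL mice, and 3.81% of the genes there did not overlap.

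The mouse values of Enpep over the brain regions were 1.35, 1.42, 1.26, 1.28 and 1.30 (log2 CPM) in aDR mice 61, 62, 64, 65 and 67 and 1.61, 1.66, 1.28 and 1.59 in AL mice 63, 66, 68 and 69. AL mouse 68 lay among the aDR mice and the other 3 AL mice lay above all of them. The difference was -0.21 ± 0.08 (SE; limma adjusted p = 0.23), so it did not pass the test. Pericytes are a known source of Enpep in brain, and 7 of 7 pericyte markers were lower in aDR mice by the same measure, with a median of -0.20, of which Higd1b passed (-0.35, limma adjusted p = 0.022). Of 8 endothelial markers 6 were lower in aDR mice and 2 were higher, Slc2a1 (0.18) and Ly6c1 (0.02). Limma called 4, all of them lower, Cldn5, Flt1, Kdr and Tek, by -0.26 (Flt1) to -0.56 (Kdr). The part of these vascular markers in the Enpep values was not tested. In the plasma cohort Enpep differed by -0.06 ± 0.11 (limma adjusted p = 0.89) over the brain regions. In hypothalamus the YMP mice gave 1.41, 1.46 and 1.75 CPM and the PBS mice 2.21, 2.59 and 2.79 CPM, without overlap, as for 9.44% of the genes in that comparison, and the log2 difference was -0.70 ± 0.28 (edgeR adjusted p = 0.998). In corpus callosum the 2 YMP mice, at 1.34 and 1.67 CPM, also lay below the PBS mice at 1.75, 2.48 and 4.39 CPM (-0.84 ± 0.48, edgeR adjusted p = 0.77), where 24.8% of all genes did not overlap.

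Lnpep was present in all 238 libraries at 20.9 CPM or more. With ranges close to those of Enpep (3.29-fold and 3.31-fold), Lnpep ranged 3.06-fold over brain regions in AL and 3.29-fold in PBS mice. In AL mice it was highest in olfactory bulb at 88.0 ± 7.50 CPM (SD, n = 4) and cerebellum at 77.6 ± 7.32 CPM, and cerebellum did not overlap with the next brain region, motor cortex at 50.2 ± 4.73 CPM. It was lowest in SVZ at 28.8 ± 3.05 CPM, and PBS mice gave the same top and bottom (93.7 ± 1.90 and 28.5 ± 3.00 CPM). Liver lay within the brain range, at 72.3 ± 14.8 CPM in AL and 73.8 ± 22.0 CPM in DR mice, a log2 difference of 0.05 ± 0.23 (SE; edgeR adjusted p = 0.985). In SVZ the YMP mice 73, 77 and 81 gave 36.2, 39.8 and 37.6 CPM and the PBS mice 72, 76, 80 and 84 gave 25.4, 27.2, 28.8 and 32.5 CPM. The YMP and PBS mice did not overlap, as for 14.6% of the genes in that comparison, and the log2 difference was 0.39 ± 0.10 (edgeR adjusted p = 0.18). The choroid plexus markers did not overlap between these groups either, and their part in the difference was not tested. In cerebellum the plasma difference was -0.31 ± 0.10 (edgeR adjusted p = 0.44). In pons aDR mouse 67 gave 63.4 CPM against 30.7 to 38.7 CPM in the other aDR mice, and the diet difference of 0.21 became -0.02 without that library. Over the brain regions the log2 difference of Lnpep was -0.04 ± 0.03 (SE) for diet (limma adjusted p = 0.59) and -0.03 ± 0.07 for plasma (adjusted p = 0.92).

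**Figure D4:**
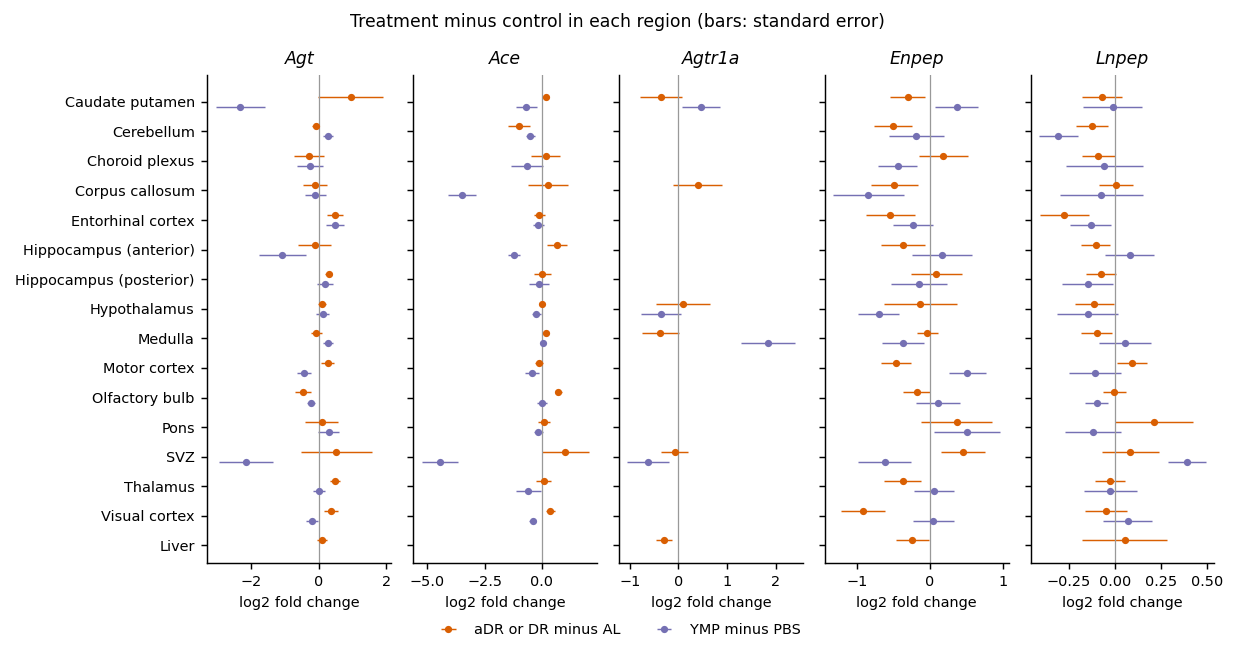
Log2 fold change of each gene in each region and in liver where it passed the filter on low counts, with its standard error (edgeR); orange is aDR or DR minus AL, purple is YMP minus PBS, and the horizontal scale differs between panels. The widest differences are those of Agt in SVZ and caudate putamen and of Ace in SVZ and corpus callosum in the plasma cohort, and the largest estimate of Lnpep is 0.39.

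Taking the within-region tests as a whole, 0 members passed the threshold (adjusted p under 0.05). In the diet cohort 69 tests of the 5 members in 15 brain regions and liver gave 5 with an unadjusted p under 0.05 and none called (lowest edgeR adjusted p = 0.12), where 0.0616% of all gene tests were called. In the plasma cohort 49 tests of the 4 members other than Ace gave 6 with an unadjusted p under 0.05 and none called (lowest edgeR adjusted p = 0.18), where 0.0127% of all gene tests were called. DESeq2 called 0 members in the diet cohort. Of the 4 members other than Ace it called 1 in the plasma cohort, Agt in SVZ. Over the brain regions limma called 0 of 5 members for diet, beside 1.75% of all genes, and the mouse groups overlapped for each of the 5, beside 8.3% of genes without overlap. For plasma it called 0 of the 4 tested members, beside 0% of all genes. In that fit 1317 of 15768 genes had an unadjusted p under 0.05, and a voom fit with mouse as the replicate block called 468.

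**Figure D5:**
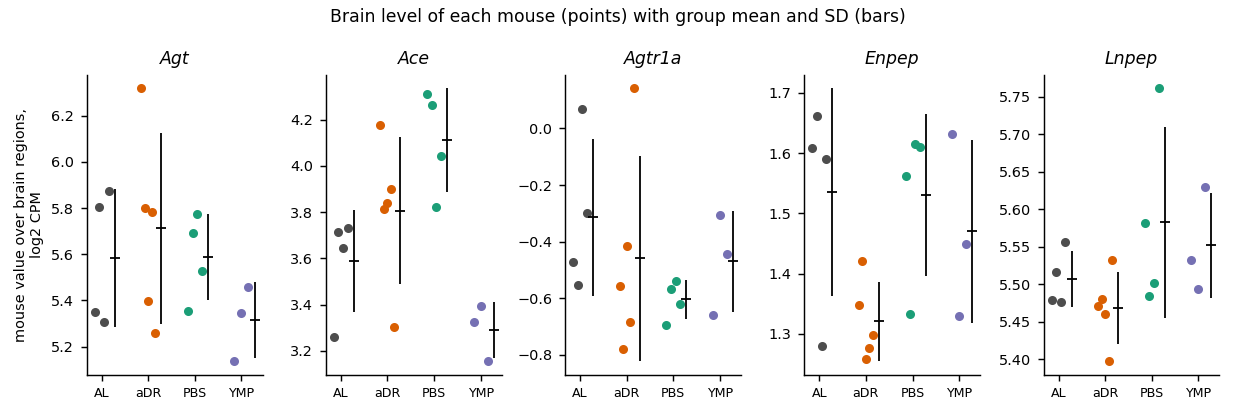
Level of each gene per mouse over the brain regions, as the mouse term of log2 CPM after region has been accounted for; points are mice, and bars beside them give the group mean and SD. The YMP mice lie below all PBS mice for Ace, and the groups overlap for the other genes in both cohorts.

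Whether a treatment acted differently in different regions was tested with the region by treatment terms in edgeR. For diet the adjusted p was 1 for each of the 5 members, beside 0.0128% of genes called. For plasma it was 0.18 for Agt, 0.997 for Enpep and 1 for Agtr1a and Lnpep, beside 0.786% of genes called. The diet effect in liver was compared with the brain effect of the same mice. Liver minus brain was -0.03 ± 0.27 (log2, SE) for Agt, -0.16 ± 0.25 for Agtr1a, 0.0048 ± 0.22 for Enpep and 0.07 ± 0.24 for Lnpep, with limma adjusted p between 0.968 and 0.999 and 0.0705% of genes called. Ace was too low in liver for this test.

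Levels of different genes can be compared only per length of transcript. On CPM per kb of annotated exon, liver of AL mice held 667 ± 52.4 (SD, n = 4) of Agt, 54.6 ± 8.15 of Agtr1a, 35.8 ± 10.95 of Enpep, 5.11 ± 1.05 of Lnpep and 0.29 ± 0.15 of Ace. The median over the 112 brain libraries of AL and PBS mice was 26.9 CPM per kb for Agt, 3.12 for Lnpep, 2.26 for Ace, 0.55 for Enpep and 0.18 for Agtr1a. Agt was thus the top member per length in both organs, and Ace was last in liver and below Agt and Lnpep in brain.

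Of 22 other genes of the system 21 had a row, and Ren2 had none. Renin itself was close to absent, with 316 counts of Ren1 over all libraries and none in 163 of 229 brain libraries, and Cma2, a mast cell chymase, had 1 count in all. The receptor genes Agtr1b, Agtr2 and Mas1 had brain medians of 0.13, 1.07 and 9.07 CPM. Within regions 0 of 185 diet tests and 0 of 176 plasma tests of this list were called, beside 0.0616% and 0.0127% of all gene tests, with 10 and 14 at an unadjusted p under 0.05. DESeq2 and edgeR without PBS mouse 84 each called Agtrap, an adaptor of the type 1 receptor, as lower in YMP mice, in SVZ (-0.996, adjusted p = 0.0065) and corpus callosum (-1.20, adjusted p = 0.011) respectively. The corpus callosum call set YMP mice 77 and 81 against PBS mice 76 and 80 only. In SVZ and corpus callosum the choroid plexus marker sum was lower in all YMP than in all PBS libraries, as given above. Its part in the Agtrap calls was not tested. Over the brain regions 15 list genes were tested for diet, of which 7 were higher and 8 lower in aDR mice with a median of -0.00087, beside -0.0062 over all genes, and limma called 0. For plasma 6 were higher and 8 lower with a median of -0.016, beside -0.0037 over all genes, and limma called 0 of them and 0 of all genes. The mouse groups did not overlap for 1 of 15 list genes in the diet cohort and 3 of 14 in the plasma cohort, beside 8.3% and 10.1% of all genes. They were Rnpep in the diet cohort (-0.18, limma adjusted p = 0.066) and Thop1 (0.10, adjusted p = 0.59), Mas1 (0.14, adjusted p = 0.68) and Agtrap (-0.26, adjusted p = 0.42) in the plasma cohort. Rnpep, aminopeptidase B, was lower in aDR mice in all 15 brain regions and in liver, by at most 0.30, and higher in YMP mice in all 15 brain regions, by at most 0.19, with 0 of these 31 comparisons called.

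The genes whose region means in control mice followed each member most closely were ranked by Pearson's r over the 15 brain regions, among 13421 genes. These are descriptions over regions that share libraries and dissection, with no test. For Agt they were Sparc (r = 0.94), Ece2, Hykk, Atp13a4 and Cyp2j9 (0.91), and the same 5 led over the 14 regions without choroid plexus. For Ace they were Trpv4 (r = 0.91), Wdr72, Acaa2, Lmx1a and Slc16a8 (0.90), and without choroid plexus they were Tmed1 (0.91), Pi4k2b, Cabcoco1, Acaa2 and Polr1a (0.88). For Agtr1a they were Spata1 (r = 0.90), Isl1, Sdc2, Pwwp3b and Hs6st2 (0.86), and Isl1 (0.92), Spata1, Pwwp3b, Ddx59 and Nkx2-1 (0.87) without choroid plexus. The ranked genes reached a mean of at least 5 CPM in some region, but the highest control mean of Agtr1a was 2.56 CPM (PBS hypothalamus). Its profile over regions thus rests on few counts. For Enpep they included Adm (r = 0.87), Pla2g3, Insig1 and Atp5h (0.83), and without choroid plexus Adm (0.87), Insig1, Pla2g3, Atp5h and Shc1 (0.85). For Lnpep they were Larp4 (r = 0.96), Rdh13, Gon4l, Ireb2 and AC156546.1 (0.93), and Larp4 (0.97), Rdh13, Gon4l, Ttc37 and Ireb2 (0.93) without choroid plexus.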

How the data were processed

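The authors deposited whole-number read counts per gene for 238 libraries. Per the labels' protocols, cDNA was made by Smart-Seq2 and libraries by Nextera XT, without strand. The submitters' processing notes name Trim Galore 0.3.7, STAR 2.5.3a, DESeq2 and GRCm38, and the counting program is not given in the sources used here. CPM was computed from the deposited counts with TMM library sizes. Within regions, edgeR 4.0.16 (R 4.3.3) tested genes kept by filterByExpr (minimum count 10, minimum total 15). Over regions, limma 3.58.1 compared 1 value per mouse, the mouse term of a linear model with region (log2 CPM, prior count of 2). DESeq2 1.42.0 was an alternative. P-values were adjusted over all genes tested (Benjamini-Hochberg) and called under 0.05. Scripts were tested on simulated data. Reads carry no molecular identifiers, so PCR copies of a molecule cannot be told from separate molecules in the counts.

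Members and lists were chosen with earlier results of these data known. The 5 members were always named. Of the pathway list those named were called in a comparison, did not overlap over brain regions, or had under 10 counts, and others (Ren1, Agtr1b, Agtr2 and Mas1 for their levels, Agtrap for calls under alternatives) were chosen after their values were seen. A few genes that these rules name are not reported here. Also chosen after seeing values were the single markers, and the region effects that are given with values. Labels carry the same mouse number in each region, so numbers pair libraries of 1 animal across regions and never across treatments. Deviations of libraries from their group means had a mean correlation of 0.047 within 1 mouse and of -0.0058 across mice in the diet cohort, and of 0.099 and -0.017 in the plasma cohort. No label gives a batch. Replicates were separate mice, and in 357 pairs of replicate libraries counts differed beyond sampling noise (lowest chi-square per degree of freedom 1.29).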

Additional observations from a re-analysis of the deposited data

Results flagged for a closer look

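Among 51 groups of 4 or 5 mice examined for a value far from the others, 3 held one, where chance alone flags about 1 in 20. Ace in cerebellum of AL mouse 68 was 33.3 CPM, far above the next AL mouse at 7.20 CPM, in a library with choroid plexus markers at 47.4% of the choroid plexus mean. Agt in thalamus of AL mouse 63 was 250.2 CPM against 183 to 192 CPM in the other AL mice. Lnpep in pons of aDR mouse 67 was 63.4 CPM against 38.7 CPM in the next aDR mouse, and in the same library Enpep was 8.95 CPM and Ace 5.53 CPM.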

How the results depend on the processing

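Of 608 alternative values of 68 results, 567 kept their direction and side of the threshold or moved by less than the replicate spread, 27 turned in sign, 13 moved further and 1 passed the threshold. The cause was not tested. Calls of members other than Ace in the plasma cohort went from 0 to 1 with DESeq2 (Agt in SVZ). With the choroid plexus marker level as covariate, log2 differences turned for Agt in diet SVZ (-0.17), Ace in diet cerebellum (0.15), Ace in plasma corpus callosum (1.58) and SVZ (2.49), and Lnpep in diet pons (-0.063) and plasma SVZ (-0.053). In plasma corpus callosum and SVZ the marker level does not overlap between treatments, so these covariate values are extrapolations and nothing is read from their sign. Over brain regions, leaving out choroid plexus, SVZ and corpus callosum gave -0.35 for Ace, -0.16 for Agt and 0.043 for Enpep in the plasma cohort. The median ratio of measured Ace to the choroid plexus share was 0.40 with the choroid plexus library of the highest ratio in each cohort as reference and 1.37 with that of the lowest.

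Leaving out 1 mouse at a time gave ranges of -0.22 to 1.96 for Agt in diet SVZ, -0.077 to 0.19 for Lnpep in liver and -0.020 to 0.30 for Lnpep in diet pons. Over brain regions the ranges were -0.026 to 0.24 for Agt in the diet cohort (negative without mouse 61), and -0.13 to 0.011 for Enpep and -0.073 to 0.028 for Lnpep in the plasma cohort (positive without mouse 77 and without mouse 84). For liver minus brain they were -0.18 to 0.14 for Agt, -0.14 to 0.11 for Enpep and -0.078 to 0.18 for Lnpep. None of these was called in any setting.

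No paired analysis was possible within regions because treated and control groups share no mouse. With mouse as the replicate block over brain regions (voom), Ace in the plasma cohort was -1.39 and Agt -0.048, and in the region by treatment test the block changed no call of a tested member. Called genes over brain regions in the diet cohort were 273, 165 without the filter on low counts, 129 without the 3 regions above, 144 in limma without a trend, an alternative chosen after seeing the data, 1475 with the mouse block in voom and 2527 in edgeR without it. Leaving out 1 mouse gave 52 (without mouse 66) to 311 (without mouse 67). In the plasma cohort they were 0, 468 and 2114 for limma, voom with the block and edgeR without it, and at most 2 on leaving out 1 mouse (mouse 80). CPM of plain library totals gave lower liver levels, with Agt at 699 CPM in place of 1262 CPM, since TMM scales liver libraries up. Agtr1a had no count in 46 of 229 brain libraries.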
